A study of Mus musculus with 6 samples.

Results

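The genes of fatty acid oxidation and the targets of the nuclear receptor PPAR alpha were compared between pancreatic islets of NZO and B6-ob/ob mice. The set holds 30 genes, chosen by name among the non-control probes of the arrays, out of 27827 gene names. They are covered by 41 of 41174 probes, of which 38 were well above background on 3 or more of the 6 arrays and were tested. Of the 38, 8 were higher in NZO islets (against 11.5% of all 24628 probes tested) and 1 was lower (against 10.3%), where 21.8% of all probes passed in either direction. These 38 probes stand for 29 genes out of the 16418 gene names tested, and the probe through which each of the 29 genes was counted was well above background on all 6 arrays. Acot3 alone stayed near background on every array and was not tested.

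Both strains are obese. The New Zealand Obese strain NZO/HiBomDife, called NZO, carries the label diabetes-prone. The strain C57BL/6.V-Lepob/ob, called B6-ob/ob, carries the label diabetes-resistant and makes no functional leptin. All mice were male, had lived on a high-fat diet free of carbohydrate up to 18 weeks of age and gave their islets 48 h after carbohydrate entered the diet, so both strains share the diet, the switch and the time. There were 3 samples of NZO islets (replicates 10, 11 and 12) and 3 of B6-ob/ob islets (replicates 4, 5 and 6), each on 1 array with a single dye. Whether RNA came from single mice or from pools is not given in the labels, so the spread behind each p-value may be technical. Islets from before the switch were not analysed here, and strain and response to the diet cannot be told apart.

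Between 23621 and 24711 probes per array were well above background. Of 10 islet endocrine markers, 9 were measured and none passed the test in either direction at an adjusted p of 0.05. Their mean level on the log2 scale was 6.39, 6.43 and 6.48 in NZO islets and 6.10, 6.34 and 6.62 in B6-ob/ob islets. Markers of cells around the islet were higher in NZO islets. Called higher were 14 of 16 acinar (87.5%), 6 of 10 ductal (60%) and 8 of 9 stellate cell and fibroblast markers (88.9%). None was called lower. Among all genes 13.2% were called higher and 8.92% lower. Cftr and Muc1 of the ductal list and Pdgfra of the stellate list were well above background on NZO arrays only and passed the filter through them. In bulk islets, more cells of a type and more RNA per cell cannot be told apart.

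Fatty acids enter mitochondria as carnitine esters and are shortened by beta-oxidation, in which a series of acyl-CoA dehydrogenases, each preferring a range of chain lengths, passes electrons to the electron transfer flavoprotein. Peroxisomes shorten very long chains, and thioesterases of the Acot family release free fatty acids from CoA. PPAR alpha is a fatty acid receptor of the nucleus that binds DNA with a retinoid X receptor at direct repeats of AGGTCA and raises the transcription of many of these genes in liver. In beta cells, oxidation competes with storage of fatty acids in lipid droplets, which perilipins coat.

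The first 30 bases of the kept 60-base probes of the called genes are shown because the array reads each gene only through its probes. The files give each probe's position on mm9, for all 60 bases. The sources used here hold no exon annotation of that build.
Ppara, chr15:85631955-85632014, plus strand: caatgttaatcaatgcacagcactctacgt
Cpt1b, chr15:89246889-89246948, minus strand: taatgggcttcttacctgctttgaaatggg
Cpt1b, other probe, chr15:89247322-89247381, minus strand: ccaagcactgttggacatcgccgaactttt
Acadl, chr1:66877673-66877732, minus strand: gtcttacttgtctttcaaattctgaagagc
Acadm, chr3:153585670-153585729, minus strand: tatggtgaccctttctagataggtttggct
Acot4, chr12:85384821-85384880, plus strand: tgctggatgacatgaaattcatgtttaggg
Acot4, other probe, chr12:85384162-85384221, plus strand: cttctgggtctttccctaggagctgatgtc
Plin2, chr4:86302676-86302735, minus strand: tgtgttagtcttgtgaggacctggaggaac
Acot1, chr12:85358452-85358511, plus strand: tatcaaaatagtgctgattcaagggctggg
Fabp3, chr4:129992608-129992667, plus strand: catcagcctggacccagttcctactatgta

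Levels are given as the log2 of a probe's intensity relative to the 75th percentile of its array, so a level of 0 is that of the 75th percentile. Levels of different probes are not comparable with each other. Differences are NZO minus B6-ob/ob on the same log2 scale, with the standard error and adjusted p of limma. The direction of every difference comes from the scanner files. In the authors' deposited value table, whose columns follow arrays of the other strain, 27 of 29 members, and 8 of the 8 that were called, have the opposite sign. The files do not settle whether the table or the scanner files carry exchanged strain labels. If the scanner files did, every direction given here would turn round. Lep, the gene mutated in B6-ob/ob mice, stayed near background on every array and gives no check.

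Of all genes tested, 22.1% passed the threshold in either direction. Of the 29 measured members, 7 were higher in NZO islets (24.1%), against 13.2% of all genes tested, and 1 was lower (3.45%), against 8.92% of all genes. The other 21 did not pass the test. Differences were positive for 20 of 29 genes (69.0%), against 47.0% of all genes, with a median of 0.14 against -0.03 over all genes. In 11 genes every NZO array lay above every B6-ob/ob array (37.9%), against 20.7% of all genes, and in 2 every NZO array lay below (6.9%), against 20.4%. The genes called higher were Ppara, Cpt1b, Acadm, Acot4, Plin2, Acot1 and Fabp3, and Acadl was called lower.

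**Figure D1:**
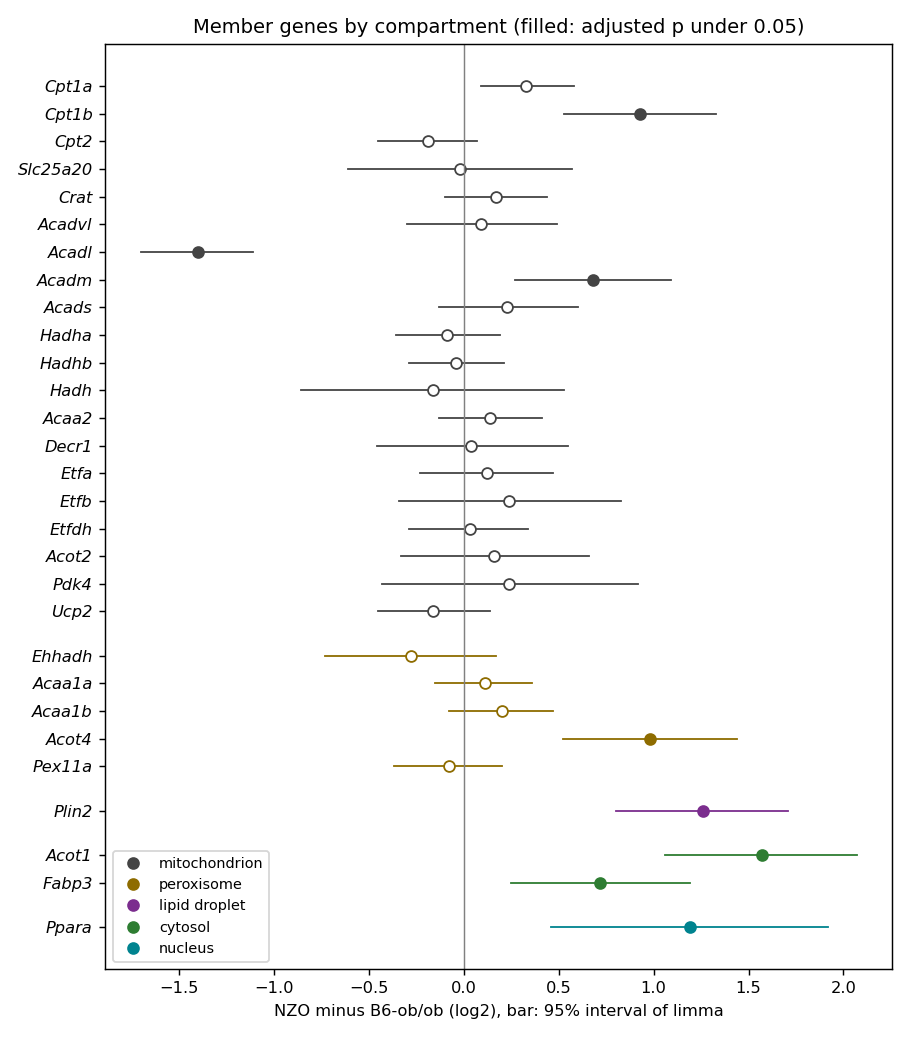
Each point is 1 of 29 member genes, with the difference of NZO minus B6-ob/ob on the log2 scale on the horizontal axis and its 95% limma interval as a bar. Filled points passed an adjusted p of 0.05; the mitochondrial genes gather around 0 except Acadl at -1.40, Cpt1b at 0.93 and Acadm at 0.68, and the genes of the lipid droplet, cytosol and nucleus lie to the right.

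Sorted by compartment, 2 of 20 mitochondrial genes were higher (10%, against 13.2% of all genes) and 1 was lower (5%, against 8.92%). The other 17 did not pass the test, and the median of the 20 was 0.11. Of 5 measured peroxisomal genes 1 was higher (20%, against 13.2% of all genes) and none lower (against 8.92%), with the same median of 0.11. The single lipid droplet gene, both cytosolic genes and the nuclear receptor itself were higher. The mean level of the 20 mitochondrial genes was 1.42, 1.33 and 1.44 in NZO islets and 1.25, 1.36 and 1.38 in B6-ob/ob islets, and these arrays overlapped. The mean of the 5 peroxisomal genes was 1.63, 1.61 and 1.63 in NZO islets and 1.42, 1.49 and 1.40 in B6-ob/ob islets, without overlap. That separation rested on Acot4: over the other 4 genes the mean was 2.66, 2.62 and 2.80 in NZO islets and 2.66, 2.76 and 2.70 in B6-ob/ob islets, with overlap. The difference between compartments was not tested.

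Ppara, the receptor, had levels of -2.49, -2.87 and -3.53 in NZO islets, against -4.39, -3.78 and -4.29 in B6-ob/ob islets. The strains did not overlap, although NZO 12 and B6-ob/ob 5 lay close to each other. The difference was 1.19 ± 0.30 (SE, 3 arrays per strain), 2.28-fold, with a limma adjusted p of 0.0361. Slide 2 held NZO 10 and B6-ob/ob 4, and slide 3 held NZO 11 with B6-ob/ob 5 and 6. NZO 12 shared slide 1 with no other of these arrays, so it enters no within-slide difference given here. For Ppara the within-slide difference was 1.90 on slide 2 and 1.17 on slide 3. Each rests on a single NZO array, and on slide 3 the B6-ob/ob arrays were averaged. Leaving out any array other than NZO 12 ended the call, with adjusted p between 0.0562 and 0.114, as did centring arrays on their medians (adjusted p = 0.0530) and testing without the filter on dim probes (adjusted p = 0.0633). With normexp background correction and an offset of 50, the difference was 0.40 after quantile normalisation (adjusted p = 0.0997) and 0.54 after scaling to the 75th percentile (adjusted p = 0.0184).

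The carnitine shuttle carries long chains into mitochondria, and Cpt1b, the muscle form of its first enzyme, was higher in NZO islets. Its levels were -2.80, -2.96 and -2.71 in NZO islets and -4.05, -3.66 and -3.55 in B6-ob/ob islets, without overlap. The difference was 0.93 ± 0.17 (1.91-fold, limma adjusted p = 0.0109), at 1.25 within slide 2 and 0.65 within slide 3. The other Cpt1b probe read -4.03, -3.04 and -3.05 in NZO islets and -4.46, -3.67 and -3.39 in B6-ob/ob islets. There the strains overlapped and the difference of 0.47 was not called (adjusted p = 0.434). Both probes also match a RefSeq record named Gm44502, and the array cannot tell the transcripts apart. With slide as a block the first probe missed the threshold (0.91, adjusted p = 0.0510), and under the normexp settings its difference was 0.33 and 0.45.

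Cpt1a, the liver form of that enzyme and the form usually described in islets, read 1.92, 1.96 and 1.92 in NZO islets and 1.58, 1.60 and 1.62 in B6-ob/ob islets. The strains stood apart with little spread within either, and yet the difference of 0.33 ± 0.10 missed the threshold (limma adjusted p = 0.0615). Its 95% interval ran from 0.09 to 0.58. Under 3 of 17 alternatives Cpt1a was called higher, with limma adjusted p between 0.0122 and 0.0311. The other Cpt1a probe gave 0.16 (adjusted p = 0.460) with overlapping arrays. Cpt2, which rebuilds the CoA ester on the inner membrane, read 3.93, 3.89 and 3.77 in NZO islets and 4.07, 4.06 and 4.02 in B6-ob/ob islets. The strains did not overlap, with NZO below, but the difference of -0.19 was not called (adjusted p = 0.273). Crat, which moves short acyl groups onto carnitine, gave 0.17 (adjusted p = 0.337), and Slc25a20, the carrier that exchanges carnitine for its esters, gave -0.02 (adjusted p = 0.969).

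The acyl-CoA dehydrogenases of the first step of the cycle went different ways. Acadl, the long-chain enzyme, read -0.97, -1.12 and -0.91 in NZO islets, against 0.30, 0.40 and 0.51 in B6-ob/ob islets. The gap between the strains was far wider than the spread within them, and the difference of -1.40 ± 0.12 (2.65-fold lower) had a limma adjusted p of 0.000849. Within slides it was -1.27 and -1.57. Acadl had 1 probe on the array, so no other probe could be set beside it. Whether the strains differ in sequence under this or any other probe was not tested.

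Acadm, the medium-chain enzyme, read 2.57, 2.39 and 2.77 in NZO islets and 1.72, 1.81 and 2.16 in B6-ob/ob islets. All NZO arrays lay above, but NZO 11 and B6-ob/ob 6 were close. The difference was 0.68 ± 0.17 (1.60-fold, limma adjusted p = 0.0349), at 0.85 within slide 2 and 0.40 within slide 3. Leaving out any 1 array other than B6-ob/ob 6 ended the call, as did median centring and slide as a block (0.59, adjusted p = 0.131). The dehydrogenases for very long and for short chains, Acadvl and Acads, gave differences of 0.09 (adjusted p = 0.730) and 0.23 (adjusted p = 0.330), both with overlapping arrays.

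The later steps of the cycle showed no called difference. Hadha and Hadhb, the subunits of the trifunctional protein that handles long chains, gave -0.09 and -0.04 (adjusted p = 0.641 and 0.823). A second Hadha probe, dim and matching a cDNA clone, gave -0.41 (adjusted p = 0.679), and another was not kept. Hadh, the short-chain hydroxyacyl-CoA dehydrogenase that beta cells express highly, read 5.60, 5.20 and 5.59 in NZO islets and 5.12, 5.55 and 6.20 in B6-ob/ob islets. The B6-ob/ob arrays surrounded the NZO arrays, and the difference of -0.16 had a 95% interval from -0.86 to 0.53. Acaa2, the thiolase, gave 0.14 (adjusted p = 0.423), and Decr1, a reductase needed for unsaturated chains, gave 0.04 (adjusted p = 0.910). Etfa, Etfb and Etfdh, which pass the electrons on to the respiratory chain, gave 0.12, 0.24 and 0.03 (adjusted p = 0.614, 0.527 and 0.908).

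Other mitochondrial members that PPAR alpha raises elsewhere were not called either. Pdk4, the kinase that shuts pyruvate out of the citric acid cycle, read -0.29, 0.21 and 0.39 in NZO islets and -0.65, 0.14 and 0.09 in B6-ob/ob islets. The arrays overlapped, and the lowest array of each strain was the one on slide 2. The difference was 0.24 (adjusted p = 0.592), with a 95% interval from -0.43 to 0.92. Ucp2, an uncoupling protein of the inner membrane, gave -0.16, -0.25 and -0.23 at its 3 probes (adjusted p = 0.413, 0.165 and 0.648). Over the 17 mitochondrial genes that were not called, limma adjusted p ran from 0.0615 to 0.969. At the probe through which each gene was counted, the 95% intervals all lay between -0.86 and 0.92. A change past 2-fold in either direction lay outside each of these intervals. The dim second probe of Hadha had a wider interval, from -1.85 to 1.03.

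**Figure D2:**
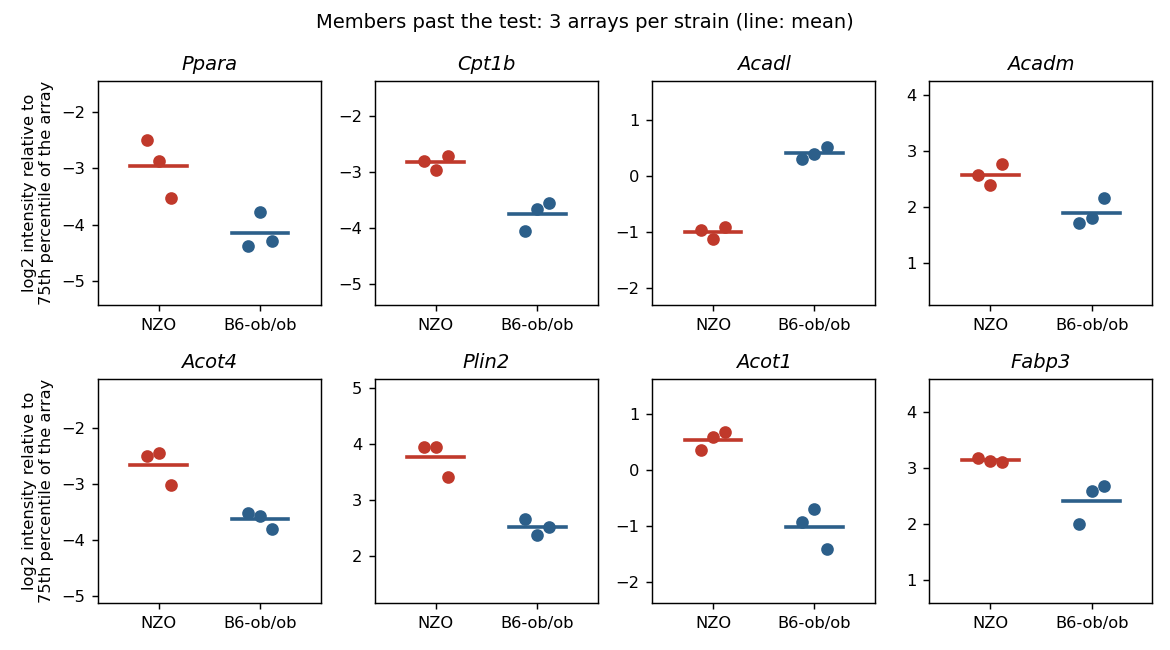
Each panel shows 1 of the 8 called member genes, with the 3 NZO arrays on the left and the 3 B6-ob/ob arrays on the right as points, the mean as a line and the level (log2 intensity relative to the array's 75th percentile) on the vertical axis. No panel has overlapping strains, Acadl is the 1 gene with NZO below, and Ppara and Acadm have the NZO and B6-ob/ob points closest to each other.

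Acot4, a peroxisomal thioesterase in the mouse, was the only peroxisomal member called higher. It read -2.50, -2.44 and -3.02 in NZO islets, against -3.52, -3.57 and -3.80 in B6-ob/ob islets, so every NZO array lay above. The difference was 0.98 ± 0.19 (1.97-fold, limma adjusted p = 0.0144), at 1.03 within slide 2 and 1.24 within slide 3. Its other probe read -3.79, -3.72 and -4.29 in NZO islets and -4.86, -4.98 and -4.94 in B6-ob/ob islets, a difference of 0.99 ± 0.18 (adjusted p = 0.0105). The call at the first probe ended without NZO 10, without NZO 11 and without B6-ob/ob 5, with adjusted p between 0.0539 and 0.0557. Under the normexp settings the difference was 0.37 (adjusted p = 0.0693) and 0.51 (adjusted p = 0.0244).

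The enzymes of the peroxisomal cycle itself did not pass the test. Ehhadh, the bifunctional enzyme and a standard PPAR alpha target in liver, gave -0.28 (adjusted p = 0.341) with overlapping arrays. The thiolase Acaa1a read 5.47, 5.56 and 5.52 in NZO islets and 5.42, 5.34 and 5.45 in B6-ob/ob islets. These arrays stood just apart, but the difference was 0.11 (adjusted p = 0.521), and its other 2 probes gave -0.07 and -0.09. The paralog Acaa1b gave 0.20 (adjusted p = 0.272), also without overlap, and 1 of the Acaa1a probes matches records of both genes. Pex11a, which promotes the division of peroxisomes, gave -0.08 (adjusted p = 0.659).

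Plin2, listed under its older symbol Adfp, coats lipid droplets and is a known PPAR alpha target. It read 3.95, 3.95 and 3.40 in NZO islets, against 2.65, 2.37 and 2.52 in B6-ob/ob islets. The lowest NZO array was well above the highest B6-ob/ob array. The difference was 1.26 ± 0.19 (2.39-fold, limma adjusted p = 0.00571), at 1.30 and 1.50 within slides 2 and 3. It kept its call under 17 of 17 other settings, with differences between 1.16 and 1.46.

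The cytosolic thioesterase Acot1 had the highest difference among the members. It read 0.37, 0.60 and 0.68 in NZO islets and -0.93, -0.69 and -1.41 in B6-ob/ob islets, with every NZO array above 0 and every B6-ob/ob array below. The difference of 1.57 ± 0.21 (2.96-fold, limma adjusted p = 0.00386) was 1.31 within slide 2 and 1.66 within slide 3, and kept its call under 17 of 17 settings. Fabp3, the fatty acid binding protein of heart and muscle, read 3.19, 3.13 and 3.11 in NZO islets and 2.01, 2.59 and 2.68 in B6-ob/ob islets. The NZO arrays were nearly equal, and the B6-ob/ob array on slide 2 was the lowest of the 6. Its difference of 0.72 ± 0.20 (1.65-fold, limma adjusted p = 0.0447) was 1.19 within slide 2 and 0.50 within slide 3. The Fabp3 call ended without any 1 of the NZO arrays, without B6-ob/ob 5, with median centring and with slide as a block.

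Acot1 to Acot6 lie side by side on chromosome 12, and their probes differed along the cluster. On mm9 the probes start at 85334071 for Acot2, 85358452 for Acot1, 85384162 and 85384821 for Acot4, 85399588 for Acot3 and 85451951 for Acot6. Acot1 and Acot4, in the middle, were higher in NZO islets by 1.57 and 0.98. Acot2, the mitochondrial form, read -2.73, -2.90 and -2.52 in NZO islets and -3.26, -2.62 and -2.76 in B6-ob/ob islets, overlapping, with a difference of 0.16 (adjusted p = 0.620). Acot6 gave -0.04 (adjusted p = 0.907), while Acot3 and Acot5 were not kept. Within 200 kb the kept probes of Numb, Riox1, Dnal1, Pnma1 and Mideas, which do not belong to the family, were not called. The differences were not tested against each other. These genes are close copies, and how far a probe also binds the transcripts of its neighbours was not tested.

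**Figure D3:**
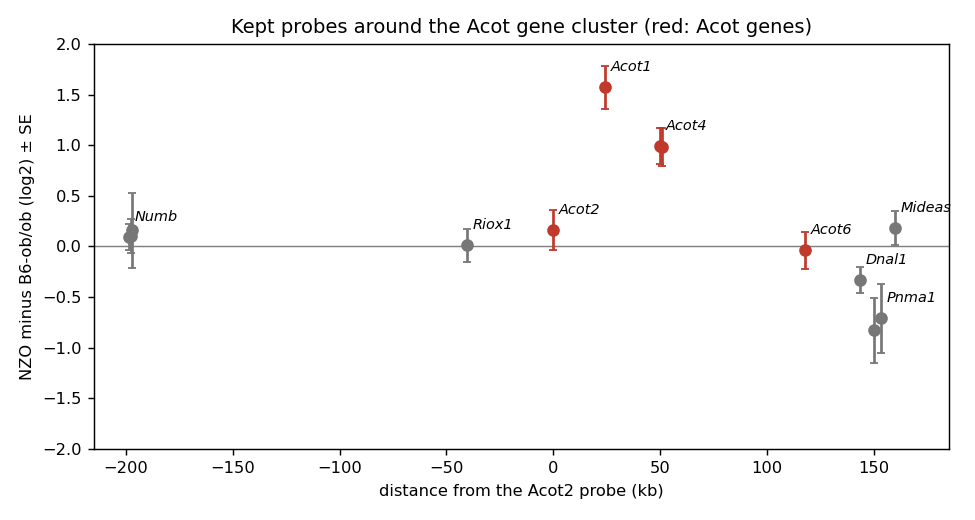
The difference of NZO minus B6-ob/ob (log2, with its SE) of each kept probe is plotted by distance from the Acot2 probe in kb, with Acot genes in red and other genes in grey. The Acot1 probe at 1.57 and the Acot4 probes at 0.99 and 0.98 stand above the other probes, with Acot2 at 0.16 and Acot6 at -0.04.

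The promoters of the members were searched for the PPAR element because the receptor and some of its targets were both higher. RefSeq (GRCm38.p6) gave the 250 bases before the start for 26 of 30 members. A direct repeat of 2 copies of AGGTCA with 1 letter between them was found on either strand in 0 of 26 members, against 0.0407% of 27025 genes with an entry. With the letter T of each copy left free it was again in 0 of 26, against 0.4% of genes. At shares this low a set of 26 genes would rarely hold a match, so these counts cannot tell the members from other genes. Bases further upstream and within the genes were not searched. A single AGGTCA on either strand, which the repeat contains, was in 5 of 26 (19.2%), against 15.8% of genes. Of these 5, Acadm, Plin2 and Acot4 were called, and Acadvl and Cpt1a were not. The stretches of 100 bases that hold it in the 3 called genes read as follows. The capitals mark TGACCT, which is AGGTCA on the other strand.
Acadm, chr3:153944794-153944893, minus strand: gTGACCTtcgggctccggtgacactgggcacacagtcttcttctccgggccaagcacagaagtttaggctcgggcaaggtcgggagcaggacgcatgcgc
Plin2, chr4:86670210-86670309, minus strand: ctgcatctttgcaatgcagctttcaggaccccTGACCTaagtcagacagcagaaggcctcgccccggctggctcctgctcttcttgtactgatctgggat
Acot4, chr12:84038279-84038378, plus strand: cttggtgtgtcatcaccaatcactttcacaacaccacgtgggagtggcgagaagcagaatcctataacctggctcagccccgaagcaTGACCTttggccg
A match is a description of the letters only. Relative to the gene start, the capitals begin at -249 in Acadm, -218 in Plin2 and -13 in Acot4.

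Genes of the same pathway outside the set were counted from lists of other known PPAR alpha targets, lipid droplet genes, mitochondrial and peroxisomal genes, uptake and activation genes, and partners of the receptor. The lists share some genes with each other. Of 17 other PPAR alpha targets 14 were measured, and 9 were higher in NZO islets (64.3%, against 13.2% of all genes) and none lower. Their median difference was 1.01, against -0.03 over all genes, and all 14 were positive. Of the 14 genes, 12 were well above background on all 6 arrays, and 7 of these 12 were called higher when only such probes were tested. In that fit 20.9% of all genes passed in either direction. Without B6-ob/ob 5 the count higher was 4, and without NZO 10 it was 5. The share of all genes passing in either direction was 11.7% and 14.4% in these fits, against 22.1% with all arrays.

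Fgf21, a hormone that PPAR alpha raises in liver and that the exocrine pancreas also makes, read -1.13, -0.11 and -0.74 in NZO islets, against -4.15, -3.06 and -3.32 in B6-ob/ob islets. All NZO arrays were far above, and the difference was 2.85 ± 0.37 (limma adjusted p = 0.00336), with 2.83 at its other probe and 1.75 and 1.80 under the normexp settings. Angptl4, an inhibitor of lipoprotein lipase, read 2.18, 2.73 and 2.24 in NZO islets and 0.92, 0.22 and -0.33 in B6-ob/ob islets, a difference of 2.11 ± 0.33 (adjusted p = 0.00701). Vnn1, a pantetheinase, read -1.63, -1.58 and -1.59 in NZO islets and -2.98, -3.57 and -3.81 in B6-ob/ob islets, a difference of 1.86 (adjusted p = 0.00257), or 0.99 and 1.09 under the normexp settings. Neither of these had overlapping arrays. The fatty acid transporter Cd36, another known target, was not called and gave 0.05 (adjusted p = 0.797).

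Of 16 other lipid droplet genes 13 were measured, and 6 were higher (46.2%, against 13.2% of all genes) and none lower, with a median of 0.53. Of these 6, Plin4, Plin5 and Cidec were well above background on all NZO arrays but not on all B6-ob/ob arrays, so they passed the filter through the strain where they were high. When only probes well above background on all 6 arrays were tested, 3 of 10 were higher, in a fit where 20.9% of all genes passed in either direction. Plin3, a perilipin found in most tissues, read 1.53, 1.90 and 1.81 in NZO islets and 0.35, 0.15 and 0.14 in B6-ob/ob islets. The strains stood well apart, with a difference of 1.53 ± 0.14 (limma adjusted p = 0.00117). Plin4 and Plin5, perilipins of fat and of oxidative tissues, gave 2.87 (adjusted p = 0.0114) and 2.09 (adjusted p = 0.0310), each well above background on 2 of the 3 B6-ob/ob arrays. Under the normexp settings these were 1.14 and 1.25 for Plin4 and 0.80 and 0.92 for Plin5, which also missed the threshold when slide was a block (adjusted p = 0.100). Cidec, which helps droplets to fuse, gave 1.35 (adjusted p = 0.0371) and was well above background on 1 of the 3. Its call held under 9 of 16 alternatives and ended under the normexp settings, at 0.23 (adjusted p = 0.211) and 0.38 (adjusted p = 0.0638). The count of 6 was 2 without B6-ob/ob 5 and 3 without NZO 10 or without NZO 11. Of all genes 11.7%, 14.4% and 13.1% passed in either direction in these fits, in that order, against 22.1% with all arrays.

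**Figure D4:**
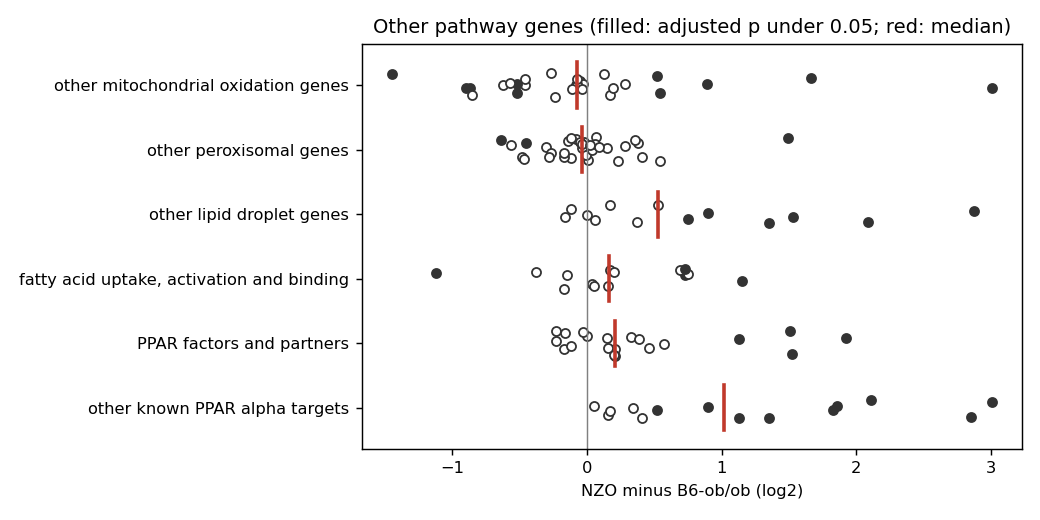
Each point is 1 measured gene of a list, placed by its difference of NZO minus B6-ob/ob (log2), filled where the adjusted p was under 0.05, with the list's median as a red line. The medians lie at 1.01 for other PPAR alpha targets and 0.53 for other lipid droplet genes, and at -0.08 and -0.04 for the other mitochondrial and peroxisomal genes.

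Among the uptake, activation and binding genes 3 of 14 measured were higher (21.4%, against 13.2% of all genes) and 1 lower (7.14%, against 8.92%), with a median of 0.17 against -0.03 over all genes. Slc27a1, a fatty acid transport protein, gave 1.15 (adjusted p = 0.00514), Acsl3, an acyl-CoA synthetase of droplets and the endoplasmic reticulum, gave 0.73 (adjusted p = 0.00481), and Slc27a3 gave 0.73 (adjusted p = 0.0304), a call that held under 10 of 17 alternatives. Acsl6, a synthetase best known from brain, gave -1.12 (adjusted p = 0.00294), and all 4 of its kept probes were called lower. The dimmest of the 4 was well above background on B6-ob/ob arrays only and passed the filter through them. Under the normexp settings the difference of -1.12 was -0.75 and -0.69.

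Among the factors and partners of the PPARs 4 of 20 measured were higher (20.0%, against 13.2% of all genes) and none lower (against 8.92%), with a median of 0.20 against -0.03. Rxrg, a partner receptor, gave 1.52 (adjusted p = 0.00609), or 0.44 and 0.59 under the normexp settings. Acacb, the carboxylase whose product holds back Cpt1, gave 1.51 (adjusted p = 0.00221), and Lpin1, a coactivator and phosphatidate phosphatase, gave 1.13 (adjusted p = 0.00181). For Lpin1 3 of 4 probes were called higher and the other gave 0.03. The probes of the coactivator subunit Med1 disagreed, at 1.92 (adjusted p = 0.000591), 0.19 and 0.07 (adjusted p = 0.456 and 0.873). Pparg, the receptor of fat cells, gave -0.16 (adjusted p = 0.348), the coactivator Ppargc1a gave -0.23 (adjusted p = 0.563), and Ppard was not kept, being well above background on 1 array.

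Higher levels of these genes in NZO islets stood beside higher markers of other cells. The mean level of the 14 measured PPAR alpha targets was 0.18, 0.22 and 0.15 in NZO islets and -0.91, -1.02 and -1.09 in B6-ob/ob islets. The mean of the 16 acinar markers was 5.26, 5.43 and 5.96 in NZO islets and 4.12, 3.48 and 2.68 in B6-ob/ob islets. The mean of the 9 stellate cell and fibroblast markers was 1.76, 1.67 and 1.99 in NZO islets and -0.01, -0.84 and -1.30 in B6-ob/ob islets. No list of these had overlapping strains, and within the B6-ob/ob arrays all fell in the order 4, 5, 6. That order was held by 5 of the 9 PPAR alpha targets called higher (55.6%), by 4 of the 6 lipid droplet genes called higher (66.7%), by 1 of the 7 members called higher (14.3%) and by 33.6% of all genes. The part of acinar, ductal and stellate cells in these differences was not tested.

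Of 10 adipocyte markers, 4 were measured and 2 were called higher (50%, against 13.2% of all genes). Both were droplet genes of the lists above, Plin4 and Cidec. The other measured markers, Fabp4 and Lipe, gave 0.75 (limma adjusted p = 0.076) and 0.06 (adjusted p = 0.843). For Fabp4 every NZO array lay above every B6-ob/ob array. The defining adipocyte genes Adipoq, Retn, Lep and Plin1 stayed near background on every array, and Cfd was well above it on 1 NZO array. Of 8 skeletal muscle markers, 4 were measured and 2 were called higher (50%, against 13.2% of all genes). These were Acta1, at 1.98 (adjusted p = 0.000443), and Tnni2, at 1.0 (adjusted p = 0.0475). Pygm and Actn3 were not called, at 0.61 and -0.34. Ckm, Myl1, Tnnt3 and Mb were not well above background on any array. Of 8 macrophage markers, 7 were measured and 4 were called higher (57.1%, against 13.2% of all genes). Cd163, among the 4, was well above background on NZO arrays only. The mean levels of the 7 were -0.79, -0.62 and -0.95 in NZO islets and -2.08, -2.25 and -2.23 in B6-ob/ob islets. Of 8 endothelial markers 2 were called higher (25%, against 13.2% of all genes). Of 8 lymphocyte markers 2 were measured and both were called higher (100%, against 13.2% of all genes). Il7r, 1 of the 2, was well above background on NZO arrays only and passed the filter through them. The other, Cd3e, gave 0.54 (limma adjusted p = 0.0283). The part of macrophages in the differences was not tested.

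**Figure D5:**
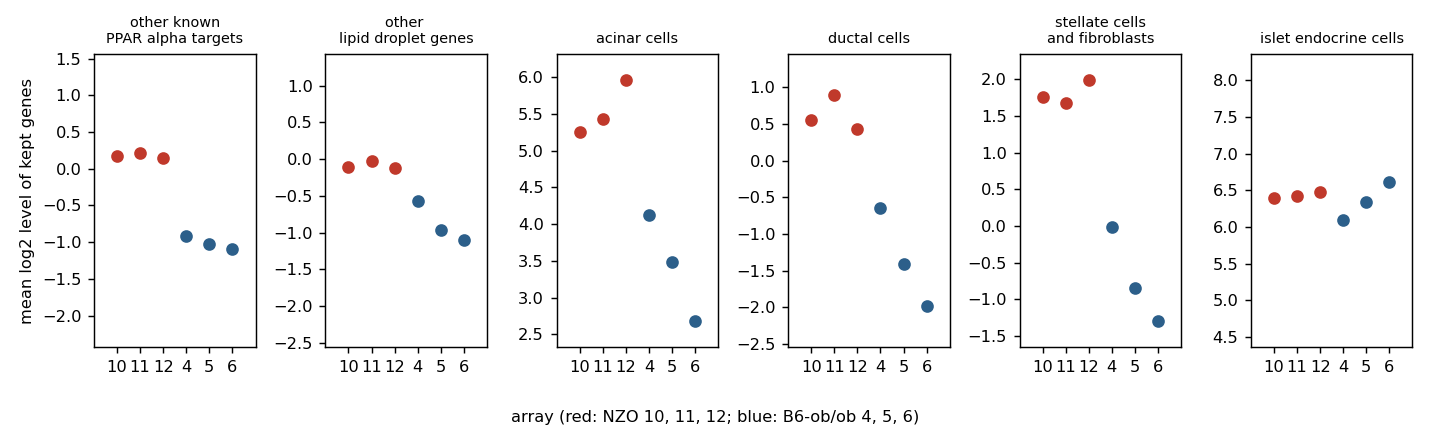
Each panel gives, for the 3 NZO arrays in red on the left and the 3 B6-ob/ob arrays in blue on the right, the mean level (log2 relative to the array's 75th percentile) over the measured genes of a list. All vertical axes span the same range; PPAR alpha targets, droplet genes and the markers of acinar, ductal and stellate cells are higher in every NZO array, and the islet endocrine markers overlap.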

How the data were processed

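Islet RNA of 3 NZO and 3 B6-ob/ob samples was read on 1-colour Agilent mouse arrays. The deposited scanner files hold a background-subtracted intensity per spot on a linear scale, which Feature Extraction (version 10.5.1.1 in the file headers) wrote without normalising between arrays. The deposited value table, also an intensity, served only to check direction. Its scale was settled against the scanner values (log2 column medians of 8.03, 8.02 and 8.03 for NZO and 8.06, 8.04 and 8.06 for B6-ob/ob), but not its direction: each column correlated with an array of the other strain at 0.966 to 0.984 and with its own at -0.778 to -0.523.

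Flagged spots (61 to 76 per array) were left out and no probe was saturated. The log2 intensity, averaged over a probe's spots, was lowered by the array's 75th percentile. Probes that 3 or more of the 6 arrays read as well above background were kept (24628 of 41174). The test was that of limma (3.58.1, lmFit and eBayes, under R 4.3.3), two-sided and adjusted by Benjamini-Hochberg across the 24628 probes, at a threshold of 0.05. At probe level 11.5% were higher and 10.3% lower. A gene was counted through its brightest kept probe. Names were updated through RefSeq accessions (25097 probes), symbols (6333) or synonyms (1640), and 8104 names are as in the files. Probe positions are on mm9, as deposited, and promoters are RefSeq's, on GRCm38.p6; Cpt1b, Crat, Acaa2 and Decr1 had no entry.

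The members, lists and markers were chosen with earlier results of these data known. Every member was named, with up to 4 called genes of each pathway list by the size of the difference, and Angptl4, Ppard, Pparg, Ppargc1a and Cd36. Some genes that this rule names are not reported here. Genes around the Acot cluster and called marker genes were named after their values were seen. On simulated arrays with 24628 probes, 28 of 68 probes changed by 1 on the log2 scale were called, 47 of 66 changed by 2 and 62 of 66 changed by 3, with 12 of 24428 unchanged probes called. The number of arrays limits the precision.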

Additional observations from a re-analysis of the deposited data

How the results depend on the processing

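The 7 members called higher were 4 when arrays were centred on their medians, 4 without the filter on dim probes, 4 with slide as a fixed block and between 3 and 6 when 1 array was left out. By the labels of the value table, whose columns follow the other strain, 1 was higher and 3 were lower. The count lower, 1, was 2 with array weights and 1 without any single array. The share of all genes called in either direction moved as well. It was 22.1% in the main fit and with median centring, 10.7% without the filter and 14.9% with slide as a block. With array weights it was 42.1%, and with 1 array left out it lay between 11.7% and 21.2%. Acadl, Acot1 and Plin2 kept their calls under all 17 alternatives on the scanner files, Cpt1b under 15, Acot4 under 13, and Ppara, Acadm and Fabp3 under 9 each. The mean of its kept probes ended the Cpt1b call (0.70, adjusted p = 0.0960), and normexp with quantile normalisation ended that of Acot4 (0.37, adjusted p = 0.0693). Among members not called in the main fit, Cpt1a was called under 3 alternatives. Acads and Ehhadh were called under 1 each, with array weights. The mitochondrial median of 0.11 was 0.03 with median centring, -0.00 with array weights and between 0.02 and 0.16 with 1 array left out. The peroxisomal median of 0.11 was 0.03 with median centring, 0.02 with normexp and quantile normalisation, 0.03 with normexp and the 75th percentile, 0.15 without the filter, -0.02 with the mean of a gene's probes and between 0.08 and 0.13 with 1 array left out. The other PPAR alpha targets called higher, alternatives added after seeing the data, were 9, and between 4 and 9 with 1 array left out. Median centring lowers every difference by the same amount, and the median over all genes fell with it from -0.03 to -0.11. That median was 0.05 without the filter and 0.02 with normexp and the 75th percentile. The cause of the other shifts was not tested. No paired analysis was possible because the strains share no replicate numbers. Slide, which holds arrays of both strains on slides 2 and 3 only, was fitted as a block instead. With 3 arrays per strain, a difference of 1 on the log2 scale was called in 41.2% of simulated probes. That simulation left 24428 of 24628 probes unchanged, whereas 21.8% of the measured probes passed. Its adjusted threshold was therefore stricter, and the 41.2% does not carry over to the data. Uncalled members may still differ.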

Other observations

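Among other genes of mitochondrial oxidation, 5 of 28 measured were higher in NZO islets (17.9%, against 13.2% of all genes) and 5 were lower (17.9%, against 8.92%), with a median of -0.08 against -0.03 over all genes. Pccb, a subunit of propionyl-CoA carboxylase, read -1.32, -1.31 and -1.42 in NZO islets, against 0.01, 0.07 and 0.23 in B6-ob/ob islets, a difference of -1.45 ± 0.12 (limma adjusted p = 0.000653). Ivd, the dehydrogenase of leucine breakdown, gave -0.90 (adjusted p = 0.0498), with -1.04 at its other probe, and its call held under 10 of 17 alternatives. Acss1, which activates acetate in mitochondria, read -0.84, -0.97 and -0.67 in NZO islets and -2.47, -2.57 and -2.41 in B6-ob/ob islets, a difference of 1.66 ± 0.13 (adjusted p = 0.000567), or 1.07 and 1.14 after normexp background correction. None of these 3 genes had overlapping arrays.

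Among 33 other peroxisomal genes measured, 1 was higher (3.03%, against 13.2% of all genes) and 2 were lower (6.06%, against 8.92%), with a median of -0.04 against -0.03. The 1 gene higher was Cat, the catalase that breaks down hydrogen peroxide, at -0.77, -0.76 and -0.41 in NZO islets, against -2.22, -2.19 and -1.99 in B6-ob/ob islets, a difference of 1.49 ± 0.15 (limma adjusted p = 0.00142).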
